A study of Homo sapiens with 20 samples.

Results

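RUNX1 binding was examined around 5 genes of the phagocyte NADPH oxidase, the enzyme that makes superoxide in monocytes, macrophages and neutrophils. All RUNX1 peaks within 50 kb of the RefSeq span of CYBB, CYBA, NCF1, NCF4 or RAC2 were taken, which gave 26 of the 26642 peaks of the series. CYBB had 3 of them, CYBA 6, NCF1 6, NCF4 4 and RAC2 7. Closest to the limit of 50 kb were, inside it, a peak 49167 bp from CYBA (log2 fold change 0.34) and, outside it, a peak 57545 bp from RAC2 (0.41). The cells were THP-1, a human acute monocytic leukemia line, in which doxycycline switched on either a short hairpin RNA that lowers the myeloid transcription factor PU.1, termed knockdown, or a scrambled hairpin, termed control. Chromatin was immunoprecipitated with an antibody against RUNX1 in 2 experimental rounds, the batches of the labels. The 6 control libraries were split evenly, 3 per batch, whereas 2 of the 6 knockdown libraries came from batch 1 and 4 from batch 2. The hairpins were carried by separate THP-1 derivatives, so the effect of PU.1 knockdown and other differences between the derivatives cannot be told apart. The assay measures no transcripts, so neither the fall of PU.1 nor the expression of the oxidase genes could be checked in these libraries.

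The oxidase is assembled on demand. Its membrane core is a flavocytochrome of the catalytic chain encoded by CYBB and the smaller chain encoded by CYBA. Upon activation, the organiser protein encoded by NCF1 and the adaptor protein encoded by NCF4 move to this core, and the small GTPase RAC2 switches the complex on. Loss of the proteins encoded by CYBB, CYBA, NCF1 or NCF4 causes chronic granulomatous disease, in which phagocytes take up microbes but kill them poorly. PU.1 is known as an activator of several of these genes in myeloid cells, and RUNX1 is known to bind DNA as a partner of PU.1.

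The promoter sequences are shown first, because 1 of them lay under a RUNX1 peak and 2 held letters that PU.1 and other ETS factors recognise. RefSeq promoters of GRCh38.p14 were given for CYBB, CYBA and NCF1, while NCF4 and RAC2 had no entry. The 250 bases before the gene start are printed 5′ to 3′ on the strand of the gene, with matches in capitals.

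NCF1, chr7:74773761-74774010, plus strand: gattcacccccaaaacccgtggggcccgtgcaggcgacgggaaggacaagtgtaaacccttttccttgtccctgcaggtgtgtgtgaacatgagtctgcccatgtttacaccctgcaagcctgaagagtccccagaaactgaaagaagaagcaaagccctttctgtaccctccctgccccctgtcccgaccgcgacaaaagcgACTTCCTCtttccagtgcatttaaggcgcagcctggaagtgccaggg
CYBB, chrX:37779809-37780058, plus strand: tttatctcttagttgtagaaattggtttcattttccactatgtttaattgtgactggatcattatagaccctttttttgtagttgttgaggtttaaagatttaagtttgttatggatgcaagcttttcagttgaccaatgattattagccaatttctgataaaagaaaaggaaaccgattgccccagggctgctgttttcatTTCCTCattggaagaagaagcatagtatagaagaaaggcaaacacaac

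The capitals are the reverse strand of the ETS letters searched, GAGGAA and its longer form GAGGAAGT. The longer form stood 40 to 47 bases before the start of NCF1 and was found in 2.17% of the 35116 promoters of this length. The shorter form stood 43 to 48 bases before the start of CYBB and was found in 23.6% of all promoters. Neither stood in the CYBA window. The RUNX letters TGTGGT and TGCGGT, held by 11% and 5.84% of all promoters, were in none of the 3 windows, on either strand. The NCF1 window lay within a RUNX1 peak, whereas no peak touched those of CYBB and CYBA.

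Lower and higher RUNX1 binding after PU.1 knockdown stood side by side at these loci. Of the 26 peaks, 13 were called, 5 gained and 8 lost, by DESeq2 with batch as a covariate (Benjamini-Hochberg adjusted p under 0.05 over all peaks and a fold change over 1.1). Over the whole series 42.0% of peaks were called, 21.3% gained and 20.7% lost, so the share of 50% at these loci, 19.2% gained and 30.8% lost, was near the background. With edgeR, which called 47.1% over the series, 5 were gained and 8 lost too. The median log2 fold change was -0.16 over the 26 peaks and -0.025 over all peaks. Of the 13 calls, 1 changed more than 2-fold, and the share over the series at this threshold is not given. For each gene the peak nearest to its start was read, or for NCF4 and RAC2 to either end of the span. This peak was lost at CYBB, where it lay 24487 bp away, and at CYBA, NCF1 and NCF4, and was not called at RAC2. The share lost among the peaks nearest to a gene start over the series is not given, so no pattern is read from these losses. The CYBB peak lay nearer to an end of XK (22697 bp), and limits of the CYBA and NCF1 losses are given below. Counts are given as normalised counts, the reads in a peak divided by the DESeq2 size factor of the library, as mean ± SD of 6 libraries per genotype. Reads in peaks ran from 630247 to 1199004 per control library and from 938745 to 1719840 per knockdown library, and a single library held 5 to 325 raw reads in a member peak, so small peaks carried large counting error.

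**Figure D1:**
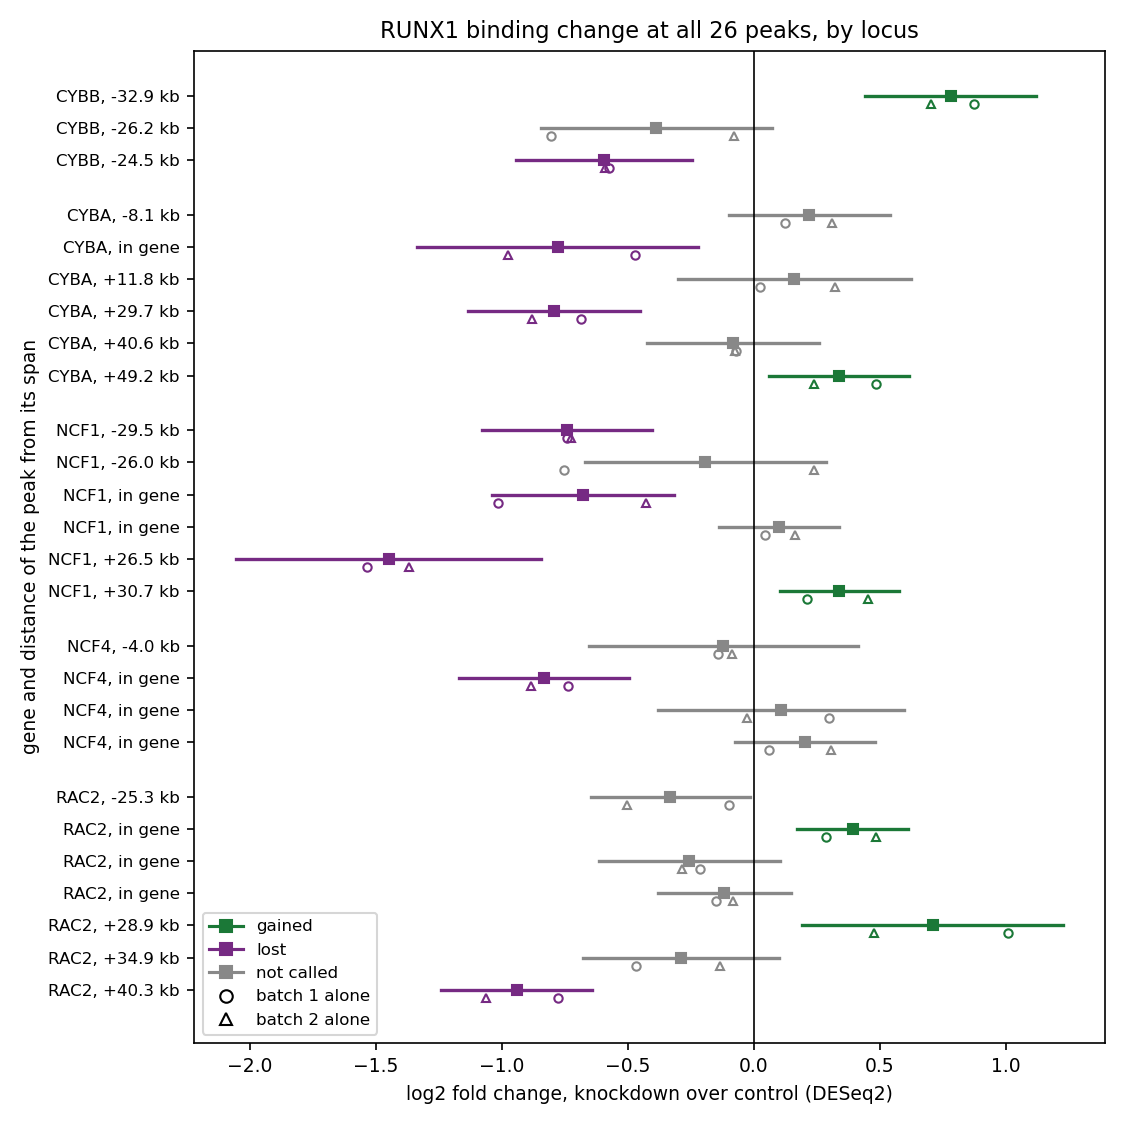
Log2 fold change of RUNX1 binding (x axis, knockdown over control) at each of the 26 peaks (y axis, by gene and distance from its span, negative towards lower coordinates); squares with bars are the DESeq2 estimate with its 95% interval, circles and triangles the estimates of batch 1 and batch 2 alone. The estimates run from -1.45 at NCF1 to 0.78 at CYBB, and each locus holds peaks on both sides of 0.

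CYBB, on chromosome X from 37780059 to 37813461 (GRCh38), had no RUNX1 peak within the gene. Its 3 peaks lay before the start, between genes, and the nearest gene end was that of XK in each case. The peak closest to CYBB, from 37754827 to 37755572, lay 24487 bp before the start. It held 41.6 to 56.9 normalised counts in control (median 44.1) and 27.3 to 38.2 in knockdown libraries (median 31.1). The groups did not overlap, and the mean fell from 46.5 ± 6.08 to 31.4 ± 4.01 (DESeq2, log2 fold change -0.59, SE 0.18, adjusted p 0.00325). The peak farthest out, from 37745942 to 37747133 at 32926 bp, moved the other way. Here control libraries held 28.4 to 45.5 counts (median 36.1) and knockdown libraries 40.8 to 75.7 (median 59.8). The groups overlapped over both batches but not within either, and the mean rose from 36.8 ± 6.47 to 59.8 ± 14.3 (DESeq2, log2 fold change 0.78, SE 0.17, adjusted p 4.27e-05). This gain was called in batch 1 alone (log2 fold change 0.87) and in batch 2 alone (0.70), whereas the loss nearer to CYBB was called in neither (-0.58 with adjusted p 0.319 and -0.59 with adjusted p 0.0734, DESeq2). The peak between them, 26176 bp before the start, had means of 27.5 ± 6.11 and 21.1 ± 5.03 and no call (log2 fold change -0.39, 95% interval -0.85 to 0.073). Thus the 3 peaks, which together span less than 10 kb, held a gain on the far side and a loss on the side of CYBB, and their summed count was 110.8 ± 8.61 in control and 112.3 ± 12.5 in knockdown libraries.

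CYBA, on chromosome 16 from 88643289 to 88651053, is transcribed towards lower coordinates. A weak peak within the gene, from 88648119 to 88648782 and 2271 bp from the start, held 19.5 to 36.9 counts in control (median 20.4) and 8.56 to 22.8 in knockdown libraries (median 13.5). The groups overlapped, and the mean fell from 23.7 ± 6.83 to 14.3 ± 5.64 (DESeq2, log2 fold change -0.78, SE 0.28, adjusted p 0.0178). This call rested on few reads and ended without control replicate 6 (adjusted p 0.158), without knockdown replicate 2 (0.102) or without knockdown replicate 4 (0.0592).

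Farther before CYBA the windows reach other genes. A wide peak from 88680794 to 88682780, within SNAI3 and its antisense RNA SNAI3-AS1 and 29741 bp from CYBA, held 46.9 to 62.2 counts in control and 22.6 to 40.2 in knockdown libraries. The groups did not overlap, and the mean fell from 55 ± 5.08 to 30.3 ± 6.42 (DESeq2, log2 fold change -0.79, SE 0.17, adjusted p 3.59e-05). SNAI3 encodes a zinc finger protein of the Snail family. At the edge of the window, a peak within the ubiquitin ligase gene RNF166 (88700220 to 88702028) rose from 66.6 ± 5.90 to 84.0 ± 14.0 counts (log2 fold change 0.34, DESeq2 adjusted p 0.0425). This call ended when any 1 of 7 of the 12 libraries was left out (control replicates 1, 2, 4 and 6 and knockdown replicates 1, 4 and 5), with adjusted p up to 0.270. The other 3 peaks, 1 of them over an end of MVD, a gene of sterol synthesis, had log2 fold changes from -0.083 to 0.22 and no call. No call was made at CYBA in batch 1 alone, and batch 2 alone called the losses within CYBA and SNAI3.

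**Figure D2:**
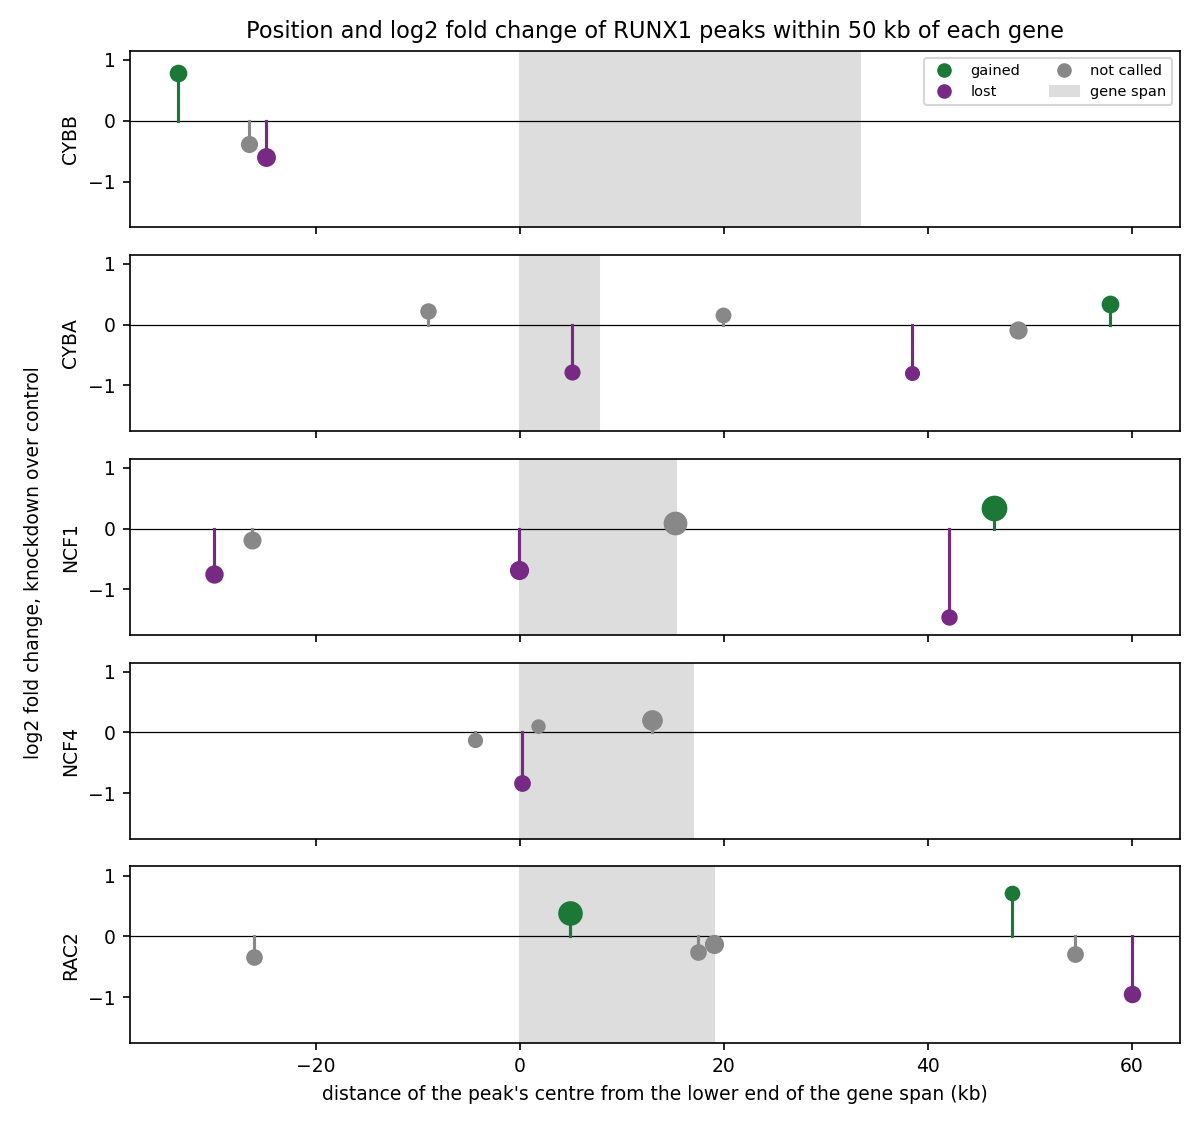
Position of the peaks (x axis, distance of the peak centre from the lower end of the gene span in kb) and their log2 fold change (y axis, knockdown over control) at each gene; the grey band is the gene span and larger dots hold more reads per kb of peak. CYBB shows no peak in its span, and peaks at the lower end of NCF1 and NCF4 lie below 0.

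NCF1, on chromosome 7 from 74774011 to 74789315, carried a RUNX1 peak over its start (74773525 to 74774408), the peak that contains the promoter printed above. It held 48.6 to 66.8 counts in control (median 61.1) and 23.7 to 64.1 in knockdown libraries (median 35.6). Of the knockdown libraries, 5 held at most 38.8 counts and lay below all control libraries, while knockdown replicate 3 held 64.1. The mean fell from 59.6 ± 6.87 to 38.3 ± 13.7 (DESeq2, log2 fold change -0.68, SE 0.18, adjusted p 0.00108). The log2 fold change was -1.01 in batch 1 alone, where the loss was called, and -0.43 in batch 2 alone, where it was not. Another peak covered the far end of the gene (74788388 to 74790064) and had 111.9 reads per kb, more than 98.7% of all peaks per length. Its means of 183.8 ± 33.3 and 191.4 ± 38.5 gave no call (log2 fold change 0.099, 95% interval -0.14 to 0.34).

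The remaining NCF1 peaks lay in the flanking genes GTF2I, which encodes a general transcription factor, and GTF2IRD2, a relative of it. Within GTF2I, a peak from 74743593 to 74744509 held 39.0 to 63.4 counts in control and 28.3 to 35.6 in knockdown libraries. The groups did not overlap (mean 54.2 ± 8.15 and 33.0 ± 2.77, DESeq2, log2 fold change -0.74, SE 0.17, adjusted p 8.95e-05). Within GTF2IRD2, a weak peak from 74815803 to 74816390 fell from 25.7 ± 7.38 to 10.1 ± 6.35 counts (DESeq2, log2 fold change -1.45, SE 0.31, adjusted p 1.99e-05), the only change over 2-fold among the 26 peaks. Its control libraries held 14.3 to 35.7 counts. Its knockdown libraries held 4.66 to 9.13, apart from knockdown replicate 3 with 22.6. Some 4 kb further on, a strong peak (74819995 to 74820984, 142.0 reads per kb) rose from 124.5 ± 21.8 to 156.7 ± 22.5 counts (DESeq2, log2 fold change 0.34, SE 0.12, adjusted p 0.0145), a call that ended without control replicate 6 (adjusted p 0.0557). The last peak, within GTF2I, had a log2 fold change of -0.19 and no call.

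Values at NCF1 cannot be assigned to NCF1 with certainty. The pseudogenes NCF1B (73220639 to 73235945) and NCF1C (75156578 to 75171998) on the same chromosome are near-identical copies, and short reads may be placed at any of the 3. All 6 NCF1 peaks had a peak at the same place of NCF1C, read in mirror image, with centres within 157.5 bp, and 5 had one at NCF1B, within 92.5 bp. At the peak over the start, the log2 fold change was -0.68 at NCF1, -0.63 at NCF1B and -0.70 at NCF1C, and control means were 59.6, 54.9 and 60.3 counts. At the far end it was 0.099, 0.010 and 0.052. The peaks corresponding to the 4 calls around NCF1 were called in the same direction at both copies. The largest difference from NCF1 was 0.51 at NCF1B and 0.31 at NCF1C, both at the weak GTF2IRD2 peak. Without the NCF1 locus, the other 4 loci held 20 peaks, of which 4 were gained and 5 lost, beside 21.3% gained and 20.7% lost over the series.

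**Figure D3:**
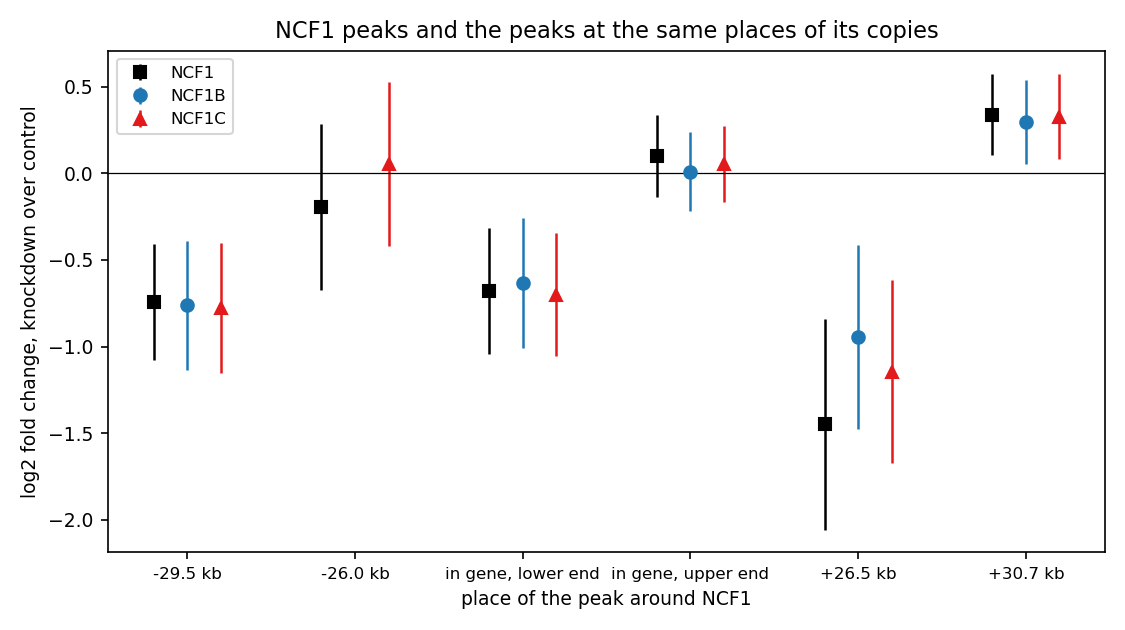
Log2 fold change (y axis, knockdown over control, with 95% intervals of DESeq2) of the 6 peaks around NCF1 (x axis, by place) and of the peaks at the same places around the pseudogene copies NCF1B and NCF1C. At the start of the gene the copies give -0.68, -0.63 and -0.70, and all intervals at a place overlap.

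NCF4, on chromosome 22 from 36861006 to 36878015, had 4 peaks, 3 of them in the gene. The peak over the lower end of the span (36860564 to 36861899), where the antisense RNA NCF4-AS1 also lies, was lost. Control libraries held 40.3 to 72.8 counts (median 56.0) and knockdown libraries 27.0 to 37.0 (median 32.9). The groups did not overlap, and the mean fell from 56.5 ± 10.4 to 32.3 ± 3.67, which is 1.75 times lower (DESeq2, log2 fold change -0.83, SE 0.17, adjusted p 1.10e-05). The loss was called in batch 2 alone (log2 fold change -0.89) but not in batch 1 alone (-0.74). Only 1210 bp inside the same end, a peak with 17.2 reads per kb, the weakest of the 26 per length, had means of 19.98 ± 2.33 and 21.0 ± 5.97 and no call. The strongest NCF4 peak, deeper in the gene (36873521 to 36874498, 71.4 reads per kb), had means of 63.9 ± 9.29 and 75.8 ± 14.0 and no call either (log2 fold change 0.20, 95% interval -0.076 to 0.48). A call was therefore made at 1 of the 4 NCF4 peaks, beside 42.0% of peaks over the series. The uncalled peaks may still have changed. The 95% interval was -0.38 to 0.60 at the weakest peak and -0.65 to 0.41 at the outer peak, 3990 bp below the span.

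RAC2, on chromosome 22 from 37225270 to 37244269, encodes the blood-cell form of Rac. The peak over the upper end of its span (37243585 to 37244956) held 65.3 to 93.3 counts in control (median 76.7) and 52.3 to 80.1 in knockdown libraries (median 71.9). The groups overlapped broadly and no call was made (log2 fold change -0.12 ± 0.13 SE, 95% interval -0.38 to 0.15). Deeper in the gene, a peak from 37229735 to 37230643 with 124.7 reads per kb, more than 99.2% of all peaks, was gained. It held 80.6 to 107.2 counts in control (median 98.8) and 110.6 to 142.8 in knockdown libraries (median 133.2). No library overlapped the other group, and the mean rose from 96.7 ± 9.07 to 129.9 ± 11.4, a ratio of 1.34 (DESeq2, log2 fold change 0.39, SE 0.11, adjusted p 0.00189). The gain was called in batch 2 alone (log2 fold change 0.49) but not in batch 1 alone (0.29, DESeq2 adjusted p 0.507). Its call also depended on the reference level, as given below.

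Beyond RAC2, the peak with the smallest adjusted p of all 26 lay within CYTH4, which encodes a blood-cell exchange factor for ARF GTPases. This peak (37284555 to 37286051, 40286 bp from RAC2) held 65.9 to 93.6 counts in control (median 74.4) and 27.7 to 56.6 in knockdown libraries (median 36.8). The groups did not overlap, and the mean fell from 77.6 ± 11.7 to 39.1 ± 10.3 (DESeq2, log2 fold change -0.94, SE 0.15, adjusted p 1.32e-08). It was called in both batches alone (log2 fold change -0.78 and -1.06). Between RAC2 and CYTH4, a weak peak (37273173 to 37273950) rose from 15.2 ± 5.63 to 24.0 ± 4.60 counts (log2 fold change 0.71, DESeq2 adjusted p 0.0210), a call that ended without control replicate 3 (adjusted p 0.0538), control replicate 6 (0.0854) or knockdown replicate 2 (0.135). The other 3 peaks had log2 fold changes from -0.33 to -0.26 and no call.

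Calls at RAC2 changed with the reference level used. Within 5 Mb on either side of the RAC2 and NCF4 peaks, the median log2 fold change was 0.19 to 0.20 over 223 to 230 peaks, whereas it was -0.079 around CYBB, 0.0038 around CYBA and 0.049 to 0.051 around NCF1. With the median of this window subtracted from each log2 fold change, both RAC2 gains lost their call (adjusted p 0.171 and 0.115), and 4 more RAC2 peaks were called lost, the peak over its upper end among them (log2 fold change -0.32, adjusted p 0.0439). The calls over all 26 peaks then numbered 3 gained and 12 lost, against 40.9% called over the series, 21.6% gained and 19.2% lost. The part of this regional level in the RAC2 values was not tested, and knockdown and differences between the THP-1 derivatives cannot be told apart here either.

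**Figure D4:**
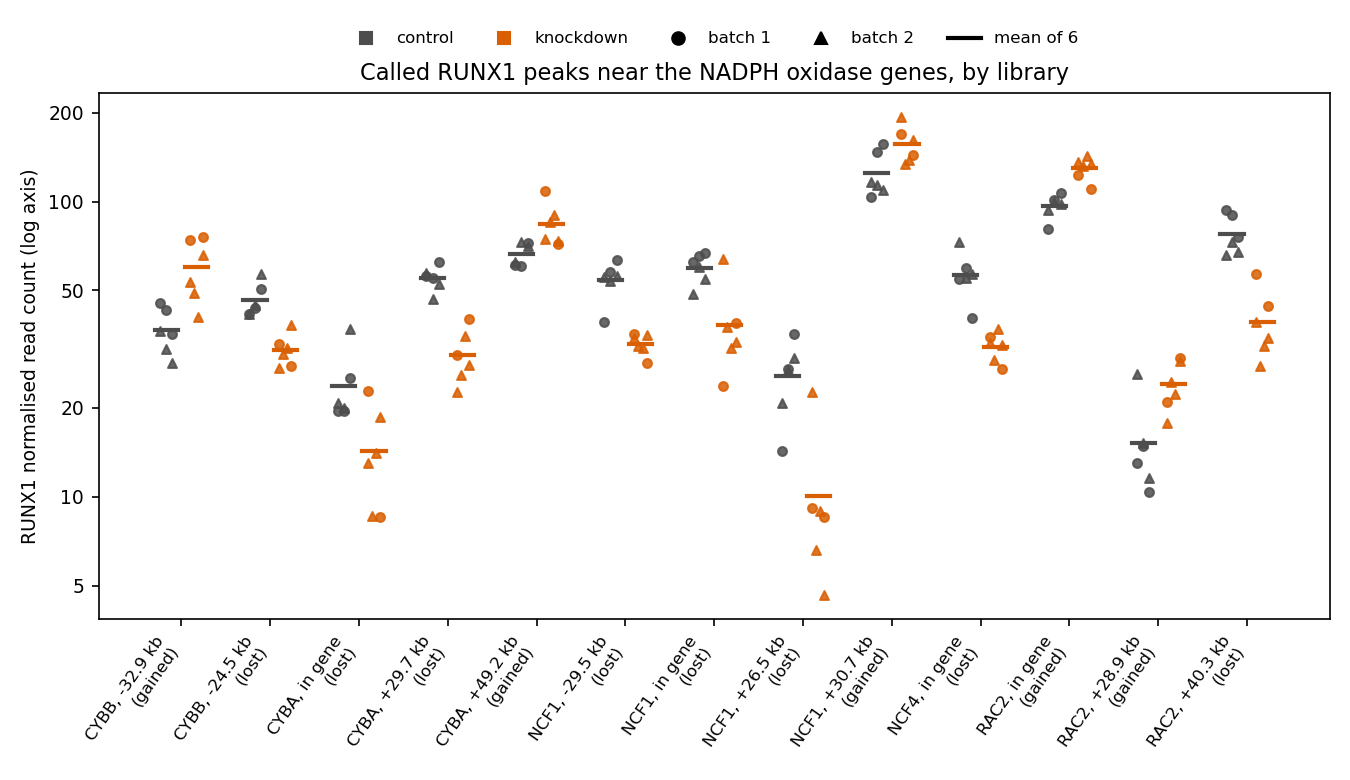
Normalised read count (y axis, log scale) of each library at the 13 called peaks (x axis, by gene and distance from its span); grey marks are control and orange marks knockdown libraries, circles batch 1 and triangles batch 2, and lines are means of 6 libraries. At the NCF1 start 1 knockdown library, with 64.1 counts, lies among the control libraries.

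Within batches, 4 of the 26 peaks were called in batch 1 alone (1 gained, 3 lost; 12% over the series, 5.38% gained and 6.61% lost), and 9 in batch 2 alone (3 gained, 6 lost; 25.8% over the series, 12.8% gained and 13.1% lost). All 13 peaks called on both batches had the same direction in each batch, as had 24 of the 26. The calls rest on these same batches, so the shared direction is no separate support, and its share over the series is not given. The product of genotype and batch was called at no member peak (DESeq2, 0 of 26, 0.00% over the series), and 1 peak, the uncalled GTF2I peak, had an unadjusted interaction p under 0.05 (0.0449). The knockdown libraries lay wholly above the control libraries of their batch, in both batches, at 2 peaks (14.4% over the series) and wholly below at 6 (13.9%), 8 in all (28.3%). In exact permutation tests with libraries exchanged within batch (two-sided, 350 arrangements), the called peaks at CYBB, NCF4, SNAI3 and CYTH4, the lost GTF2I peak and the gain within RAC2 reached the smallest possible p of 0.002857. The other 6 called peaks had p from 0.00857 to 0.0286, among them the NCF1 start (0.0200) and the peak within CYBA (0.0229). All of these peaks were chosen by their call on the same libraries, so the permutation tests are no separate support. The share of all peaks at the smallest possible p is not given.

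Signal was also summed over the peaks of each locus, where gains and losses offset each other. It was 269.3 ± 24.3 counts in control and 257.0 ± 31.2 in knockdown libraries around CYBA, 475.8 ± 65.0 and 454.4 ± 76.0 around NCF1, 158.9 ± 16.8 and 145.6 ± 11.5 around NCF4, and 405.9 ± 24.6 and 373.2 ± 20.2 around RAC2. The sums of the groups overlapped at each of the 5 loci. Across the 12 libraries, the protein-coding genes whose summed count within 50 kb followed that of a member most closely, leaving out genes that shared a peak with it, were PEA15 and ATP6V0E1 for CYBB (Pearson's r 0.85 and 0.79), TMOD1 and TSTD2, which share 1 peak, for CYBA (0.94), GTF2IRD2B and SPDYE17 for NCF1 (0.93 and 0.90), SLC22A14 and ARHGEF12 for NCF4 (0.92 and 0.87) and PCDH12 and COMMD1 for RAC2 (0.88 and 0.87). These were the highest of 12762 to 12768 correlations per gene over libraries that share genotype and batch, and they are given as a description. GTF2IRD2B lies beside NCF1C, and its window holds peaks at the copied places of NCF1 peaks, so its value is not independent of reads that NCF1 and its copies may share.

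Other genes of the pathway were read out from a list of 19, of which 17 had a peak within 50 kb, 77 peaks in all. Of these, 13 were gained and 17 lost (16.9% and 22.1%), near the 21.3% and 20.7% of the series, and their median log2 fold change was 0.0089. Around RAC1, 2 of 5 peaks were lost and none gained, and around CYBC1 2 of 6 were gained and none lost. At RAC1, which encodes the widely expressed form of Rac, a peak over the lower end of the gene (chromosome 7, 6373038 to 6374586) fell from 88.2 ± 15.5 to 46.8 ± 5.99 counts (log2 fold change -0.93, DESeq2 adjusted p 7.45e-09). Near CYBC1, whose product helps the flavocytochrome to mature, the gain with the smallest adjusted p lay 47975 bp away (log2 fold change 1.104).

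Among the 8 regulators of the oxidase, 5 of 44 peaks were gained (11.4%, against 21.3% over the series) and 12 lost (27.3%, against 20.7%). All 3 peaks of PAK1, a kinase that binds active Rac, were lost, the clearest within the gene from 27.8 ± 4.66 to 6.05 ± 2.74 counts (log2 fold change -2.21, DESeq2 adjusted p 3.41e-11). The median log2 fold change within 5 Mb of this peak was -0.32 over 81 peaks. After centring, the peak stood at -1.89 and was still called lost, while centred values of the other PAK1 peaks are not given. The single peak of PIK3CG, a phosphoinositide 3-kinase of leukocytes, fell from 71.1 ± 8.95 to 35.3 ± 6.93 counts (log2 fold change -1.06). Peaks within PRKCD and RAP1A were lost too (log2 fold change -0.86 and -0.74), the latter beside 1 gain at the same gene. A peak within PRKCB, a protein kinase C gene, rose from 28.3 ± 6.43 to 60.8 ± 8.89 counts (log2 fold change 1.14), while 3 of the 8 PRKCB peaks were lost. The clearest gains around VAV1, an exchange factor for Rac, and HVCN1, the proton channel that balances the charge the oxidase moves, lay within the neighbouring genes ADGRE1 and PPP1CC (log2 fold change 1.063 and 1.24), beside 2 losses at VAV1 and 1 at HVCN1. ARHGDIB had no peak.

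Around the other NADPH oxidases and their organisers, which other tissues use, 5 of 18 peaks were gained (27.8%, against 21.3% over the series) and 3 lost (16.7%, against 20.7%). All 5 gains lay at NOXO1 and NOXA1, beside 1 loss at NOXO1. The clearest gains of these genes lay within the neighbours RPL3L and NSMF (log2 fold change 1.51 and 1.153). The RPL3L peak was weak, with 11.5 ± 6.58 counts in control and 33.2 ± 4.72 in knockdown libraries, and was not called in batch 1 alone. The clearest loss near DUOX1 lay within SHF (log2 fold change -0.41) and lost its call after centring on the 10 Mb window (adjusted p 0.263). NOX1, NOX3, NOX5 and DUOX2 had 1 peak each without a call, and NOX4 had none.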

How the data were processed

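The analysis used 12 RUNX1 libraries; values of 8 IgG libraries were not used here. According to the methods, the authors mapped reads with bowtie2 and discarded duplicates, used macs2 for each condition in each batch, retained peaks that IDR found in both batches, and joined the conditions before featureCounts. The authors deposited unnormalised read counts for every peak, and the deposited peak width in bp served as other information. Peaks were called on the libraries compared. The submitters' processing notes name GRCm38 and GRCh38. Peak coordinates were taken as GRCh38, like the RefSeq table (GRCh38.p14), which gives no exons. Control and knockdown replicates had independent immunoprecipitations from THP-1 derivatives of the same origin, so p-values measure the spread between these.

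DESeq2 1.42.0 (R 4.3.3) was fitted over all 26642 peaks with batch as a covariate, and also within each batch and with the product of genotype and batch. The size factors centre fold changes near 0, so a global change would not be seen. Regional levels are medians over peaks within 5 Mb on either side. Alternatives were edgeR 4.0.16, other size factors, filters, windows and left-out libraries, and after seeing the data the loci without NCF1. The fits were tested on simulated counts. No libraries of the same genotype were duplicates: chi-square per degree of freedom between libraries of a group was at least 1.29, above the 1 of sampling noise. Pairs of a control and a knockdown library were not checked.

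The member genes, the list of other pathway genes and the tests were chosen with earlier results of these data known. Named in full were, per gene, the peak nearest its start (nearest end without a strand) and up to 3 called peaks with the smallest adjusted p, and for other pathway genes the called peak with the smallest adjusted p. A gene of the pathway list, counted in its totals, is not reported here. The fourth call at NCF1 was added after its values were seen. The likeness of genes was taken among those with a mean summed count of at least 50.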

Additional observations from a re-analysis of the deposited data

Results flagged for a closer look

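At each of the 26 peaks the 6 libraries of either genotype, 52 sets in all, were screened for a value whose gap to the nearest other exceeded 0.625 of the range (Dixon's criterion), and 7 were found where chance gives about 1 in 20, or 2.6. In 3 cases this was knockdown replicate 3, high at NCF1 peaks. It held 64.1 counts at the NCF1 start (23.7 to 38.8 in the other knockdown libraries), 22.6 at the weak GTF2IRD2 peak (4.66 to 9.13) and 40.4 at the uncalled GTF2I peak (18.3 to 26.4). The first 2 of these were also above all other knockdown libraries at both copies, with 61.8 and 53.4 counts at the start and 38.0 and 40.4 at the weak peak for NCF1B and NCF1C. Knockdown replicate 3 was also the highest knockdown library, short of the criterion, at the gained GTF2IRD2 peak (193.6 counts, 134.1 to 169.0 in the others). The same held at the far end of NCF1 (241.1, 140.0 to 214.0). At the copies of the gained peak it was highest too, with 200.7 counts at NCF1B and 194.8 at NCF1C. The 3 flagged peaks are neighbours in 1 library and are not independent. The other 4 cases were control replicate 1 with 80.6 counts 8118 bp from CYBA (40.0 to 54.2 in the others), control replicate 6 with 36.9 at the peak within CYBA (19.5 to 25.3), knockdown replicate 1 with 32.9 at the weakest NCF4 peak (17.1 to 21.1) and control replicate 4 with 26.02 at the weak peak between RAC2 and CYTH4 (10.4 to 15.2).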

How the results depend on the processing

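The 13 member calls stayed within 1.5 times under edgeR, other size factors, no batch term, count filters, an adjusted p under 0.01, centring and a 100 kb window. They numbered 1 (0 gained, 1 lost) at a fold change over 2, 5 (1 gained, 4 lost) of 13 peaks in a 25 kb window and 4 (1 gained, 3 lost) of 9 peaks in the gene spans, by construction. Each window used the calls of the main fit, which over the series were 42.0% of peaks, 21.3% gained and 20.7% lost. Counts in the smaller windows rest on few peaks, those at NCF1 among them. Shares over the series at a fold change over 2 or an adjusted p under 0.01 are not given. Gained peaks numbered 3 instead of 5 with the replicate block in place of batch, 3 after centring, 2 at an adjusted p under 0.01 and 9 of 36 peaks in a 100 kb window. Lost peaks numbered 5 of 20 instead of 8 of 26 without the NCF1 locus. Leaving out 1 library gave 9 to 13 calls, 2 to 5 gained (2 without control replicate 6) and 7 to 8 lost. Over the series 36.6% to 40.4% were then called. The replicate block called 11 of 26 member peaks (35.6% over the series), and the filter for 10 counts in every library 11 of 22 (32.2%). The replicate numbers do not pair the libraries: deviations of same-numbered libraries correlated at -0.059 to 0.17, and number 3 spans both batches. Under the block the RAC2 gain near CYTH4 (adjusted p 0.0598) and the RNF166 gain lost their calls. In batch 1, edgeR called 8 peaks instead of 4 (the cause was not tested), the filter for 10 counts in every library left 1, and leaving out a library gave 0 to 1 (0 without control replicate 2 or 3 or either knockdown library, the lone one then assumed to vary like controls). In batch 2, leaving out a library gave 3 to 7 instead of 9, lowest without control replicate 6 (3), control replicate 5 (4) and knockdown replicate 4 (5). Shares over the series under these alternatives within a batch are not given. In a 25 kb window the other pathway genes had 18 calls of 40 peaks (6 gained), beside 42.0% called and 21.3% gained over the series. Leaving out a library gave 25 to 30 calls of 77 peaks. The only directions that turned were of uncalled peaks: the weakest NCF4 peak to -0.083 after centring, with -0.095 to 0.24 over left-out libraries, the outer NCF4 peak with -0.26 to 0.029, and a CYBA peak with -0.17 to 0.023.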
